A study of Homo sapiens with 12 samples.

Results

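Untreated HepG2 cells carrying shRNAs against both macroH2A genes (DKD) were compared with untreated HepG2 cells carrying control shRNAs (CTL) across all genes measured by RNA sequencing. HepG2 is an established human hepatoma line that keeps many functions of liver cells. The comparison used 6 of the 12 libraries of the series, 3 per group, chosen by their labels. The shRNA cassettes had been integrated stably with retroviral pRetroSUPER vectors. Both groups were seeded, kept overnight in 0.5% serum, and then received only the vehicle of TNFα (PBS with BSA) for 24 hours. The other 6 libraries are the same 2 lines exposed to 20 ng/mL of the inflammatory cytokine TNFα. They entered the fit, so that all 4 groups shared one estimate of the spread. The labels do not say whether each line was a pool of transduced cells or a clone. An effect of the knock-down and any other difference between the lines therefore cannot be told apart. Nothing in the labels tells if libraries with different numbers are different cultures; each p-value below thus reflects the library-to-library spread alone, and that may be technical.

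MacroH2A1 and macroH2A2 are variants of histone H2A that carry a large macrodomain behind the histone fold. They replace ordinary H2A in some nucleosomes, are found at the inactive X chromosome and at silent regions, and are also present in the bodies of some active genes. In liver cells they are best known from work on differentiation, metabolism and tumour growth. Loss of either gene changes transcription at only some of the loci where the protein lies.

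Library totals ran from 37780825 to 42094144 estimated counts in DKD and from 30955080 to 41811214 in CTL, where 1 count was worth 0.0238 to 0.0273 and 0.0240 to 0.0320 CPM (counts scaled to library size with TMM factors). DKD replicate 1 stood apart. On the first principal component of the 6 libraries (54.8% of the variance) it lay at 62.5, and the other 5 lay between -23.8 and 9.04. It differed at least 2-fold from the mean of DKD replicates 2 and 3 in 1573 genes, whereas CTL replicate 1 differed from its 2 partners in 265. Its share of mitochondrially encoded transcripts was 10.35%, against 8.01% and 8.20% in the other DKD libraries and 7.92% to 8.65% in CTL. The second component (28.3%) separated the groups, with DKD libraries between -27.4 and -3.73 and CTL libraries between 14.6 and 28.9. Of 33 marker genes of other cell types, 16 were abundant enough to test. Their summed level over all 33 was 412 to 587 CPM in DKD and 401 to 451 CPM in CTL, and 46.8 to 55.4 and 49.7 to 53.3 CPM without LYZ, a lysozyme gene that HepG2 expresses. CD3E, MS4A1, MYOD1, MYOG, INS and GCG had no count in any of the 6 libraries. Hepatocyte markers were present in all of them, such as AFP, the fetal plasma protein, at 11859, 10204 and 8958 CPM in DKD and 10000.3, 8997 and 8588 CPM in CTL.

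Both target transcripts were low in every DKD library. MACROH2A1 (chromosome 5) stood at 32.4, 55.5 and 50.7 CPM in DKD, against 205, 250.4 and 254 CPM in CTL. MACROH2A2 (chromosome 10) stood at 6.01, 4.76 and 4.55 CPM in DKD, against 58.3, 54.8 and 60.4 CPM in CTL. The groups did not overlap for either gene, and the 3 DKD libraries varied more for MACROH2A1. The log2 fold change (DKD over CTL) was -2.35 (SE 0.20) for MACROH2A1, leaving 19.5% of the CTL mean, and -3.50 (SE 0.16) for MACROH2A2, leaving 8.83%. Adjusted p was 8.74e-05 and 1.16e-06. Here and below, adjusted p comes from edgeR's quasi-likelihood test with Benjamini-Hochberg adjustment over 16118 genes, and genes below 0.05 were counted as called. Of 13 tested genes of histone variants and linker histones (median log2 fold change -0.20) none rose and these 2 fell. With the block 3 fell, the third being one of the genes of the H3 variant that replaces H3 outside replication. H2AZ1, the main H2A.Z gene, averaged 279.9 ± 65.7 CPM in DKD and 321 ± 16.2 CPM in CTL (SD, n = 3 each; adjusted p = 0.603). Among 38 other chromatin regulators (median log2 fold change -0.07), HDAC2, a histone deacetylase, and CBX5, the heterochromatin protein HP1 alpha, fell by 0.36 and 0.38 on the log2 scale, and SMARCA2, a SWI/SNF ATPase in a stretch of chromosome 9 described below, rose by 0.68. With the block 1 rose and 4 fell. The main fit called 7.89% of these 38 regulators, against 4.98% of all genes, and with the block 16.5% of all genes were called. These are bulk measurements, so fewer cells with a transcript and less of it per cell cannot be told apart, here or below.

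In all, 803 of 16118 tested genes were called, 4.98%. They were 504 higher in DKD (3.13%) and 299 lower (1.86%), and 205 higher (1.27%) and 79 lower (0.49%) were also at least 2-fold apart. All 803 had groups that did not overlap, as did 3502 of all tested genes (21.7%). The median log2 fold change was 0.79 over the higher and -0.66 over the lower calls, and 0.01 over all tested genes. With the replicate number as a block the fit called 2657 genes, 1478 higher (9.17%) and 1179 lower (7.31%), 16.5% in all, and it called all 803 in the same direction. From replicates 2 and 3 alone 1983 were called, and 760 of the 803 were among them. Without DKD replicate 2 the count was 506, and without CTL replicates 1, 2 or 3 it was 531, 471 and 423.

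**Figure D1:**
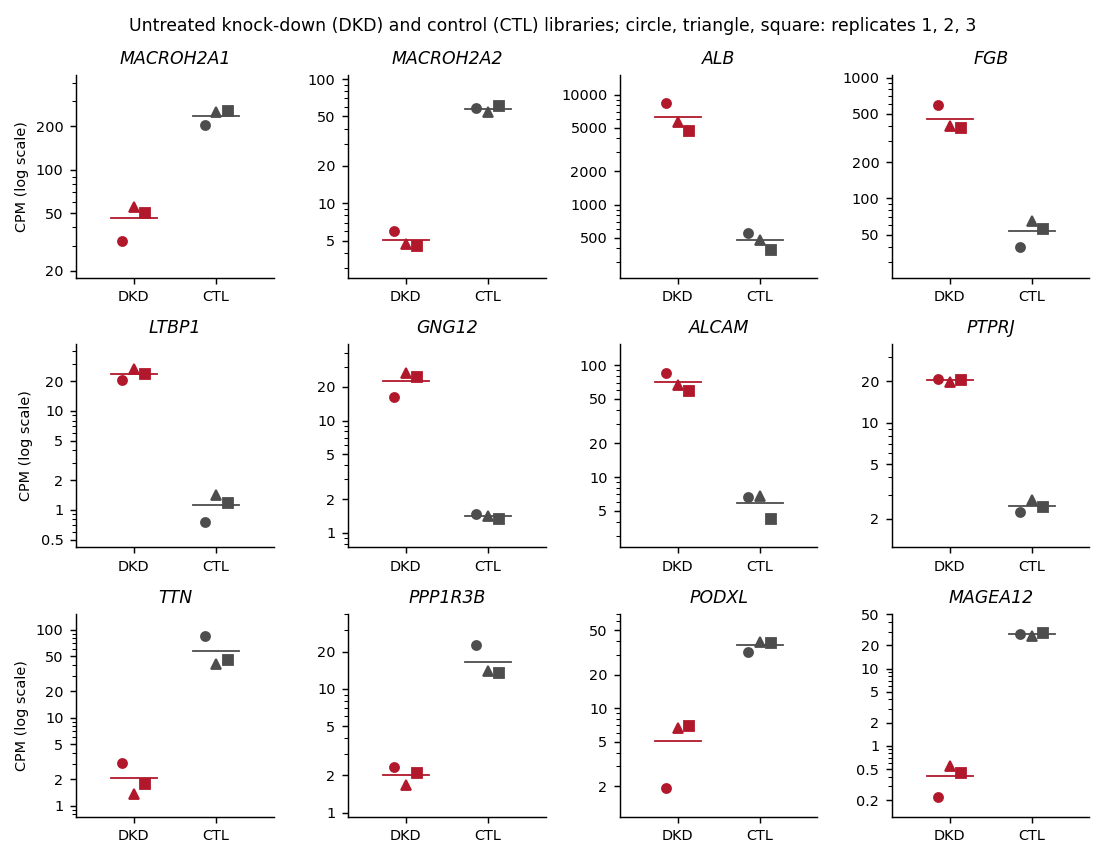
Level of 12 genes in each untreated library, in CPM on a log axis, with DKD (red) left of CTL (grey); bars are group means over 3 libraries and marker shapes give the replicate number. The groups do not overlap for any of the 12, and DKD replicate 1 (circle) is the highest DKD library for ALB and FGB and the lowest for MACROH2A1 and PODXL.

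Liver plasma protein genes were higher in the knock-down cells, led by albumin and all 3 chains of fibrinogen, the clotting protein. Of 39 tested genes for plasma proteins (42 listed) 10 rose and none fell, with a median log2 fold change of 0.51. Of 27 tested acute-phase and complement genes (32 listed) 9 rose and none fell, with a median of 0.63. The shares called were 25.6% and 33.3%, all higher, whereas 3.13% of all genes rose and 1.86% fell. The lists were written with earlier results of these data known, so these shares are a description and not a test. With the block 23 and 14 rose and none fell, where 9.17% of all genes rose and 7.31% fell. From replicates 2 and 3 alone 14 and 15 rose and 1 and 0 fell, where 1155 genes rose and 828 fell in all. In DKD replicate 1 the median member of these lists lay 0.31 and 0.46 above replicates 2 and 3 (log2). Leaving DKD replicate 1 out, 9 and 9 rose and none fell.

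Albumin, the main carrier protein of plasma, is encoded by ALB, and the fibrinogen chains by FGB, FGA and FGG, which lie side by side on chromosome 4. The 250 bases upstream of each RefSeq start (GRCh38.p14, 5′ to 3′ on the gene's own strand) are printed because these genes moved together and because this stretch holds binding sites of liver factors in ALB and FGB. Capitals mark matches to TTNNGCAA, a C/EBP-type site, searched on both strands. The windows lie at chr4:73404037-73404286 (plus strand, ALB), chr4:154562730-154562979 (plus, FGB), chr4:154590743-154590992 (minus, FGA) and chr4:154612657-154612906 (minus, FGG).
ALB: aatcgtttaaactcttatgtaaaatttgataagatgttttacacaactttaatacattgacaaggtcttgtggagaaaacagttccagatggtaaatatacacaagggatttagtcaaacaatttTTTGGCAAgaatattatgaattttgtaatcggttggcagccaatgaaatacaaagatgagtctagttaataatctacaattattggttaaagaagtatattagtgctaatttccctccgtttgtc
FGB: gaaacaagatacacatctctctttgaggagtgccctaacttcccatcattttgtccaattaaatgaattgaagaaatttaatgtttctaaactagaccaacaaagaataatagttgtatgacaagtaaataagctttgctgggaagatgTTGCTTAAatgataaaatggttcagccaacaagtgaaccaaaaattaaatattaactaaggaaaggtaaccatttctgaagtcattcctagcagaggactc
FGA: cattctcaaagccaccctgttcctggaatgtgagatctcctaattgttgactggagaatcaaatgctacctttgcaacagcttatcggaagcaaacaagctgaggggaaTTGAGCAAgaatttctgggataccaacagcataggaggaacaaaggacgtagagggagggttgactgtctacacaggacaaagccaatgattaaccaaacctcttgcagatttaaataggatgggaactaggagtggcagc
FGG: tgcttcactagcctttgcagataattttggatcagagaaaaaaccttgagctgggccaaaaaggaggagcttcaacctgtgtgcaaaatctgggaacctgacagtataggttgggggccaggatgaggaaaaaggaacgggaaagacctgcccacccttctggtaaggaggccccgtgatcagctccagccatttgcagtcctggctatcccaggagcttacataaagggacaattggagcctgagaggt
A match was present once in the windows of ALB, FGB and FGA and not in that of FGG. TTNNGCAA occurred in 9.05% of 35116 RefSeq promoter windows of this length. TATAAA, the TATA box letters, searched on both strands, was in none of the 4 and in 10.7% of all. Over both lists, 11 of the 19 called members had a promoter in the table, 6 of them with TTNNGCAA and 1 with TATAAA. Of all 74 members 53 had one, 15 with TTNNGCAA and 8 with TATAAA. With so many members lacking a promoter, a check over the lists is void.

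ALB stood at 8437, 5605 and 4685 CPM in DKD, against 550.0, 477 and 390.5 CPM in CTL (log2 fold change 3.72, SE 0.25, adjusted p = 2.13e-05). FGB stood at 588, 401 and 383 CPM in DKD, against 39.8, 64.5 and 55.6 CPM in CTL (3.10, SE 0.23). FGA stood at 1261, 574 and 554 CPM in DKD, against 107, 129 and 105 CPM in CTL (2.81, SE 0.44, adjusted p = 0.00343). For all of these the lowest DKD library was more than 4-fold above the highest CTL library, with DKD replicate 1 highest. FGG, the gamma chain, stood at 2115, 1749 and 1748 CPM in DKD, against 274, 406 and 371 CPM in CTL (2.42, SE 0.24). A2M, a broad protease inhibitor, stood at 4171, 2559.7 and 2259 CPM in DKD, against 1362, 1099 and 944 CPM in CTL (1.40, SE 0.24, adjusted p = 0.00601).

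Changes in the other called members were smaller or concerned rarer transcripts. ITIH2, a hyaluronan-binding plasma protein, averaged 696 ± 93.3 CPM in DKD and 212 ± 27.5 CPM in CTL (log2 fold change 1.71). SERPINC1, which encodes antithrombin, averaged 94.0 ± 26.5 and 36.7 ± 5.55 CPM in DKD and CTL (1.36). HP, the haemoglobin scavenger haptoglobin, averaged 11.8 ± 1.76 and 6.01 ± 0.632 CPM (0.98), and HPX, the haem scavenger hemopexin, 3.18 ± 1.76 and 0.779 ± 0.249 CPM (2.03). APOA1, the main protein of HDL, TTR and RBP4, carriers of thyroid hormone and retinol, and the complement gene C2 rose by 0.43, 0.52, 0.52 and 0.57. PROC, the anticoagulant protein C, rose by 0.53 and lies in a stretch of chromosome 2 described below. AFP did not pass (0.17, adjusted p = 0.484, and 0.134 with the block). Its groups overlapped, although DKD was higher in all 3 same-numbered pairs.

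**Figure D2:**
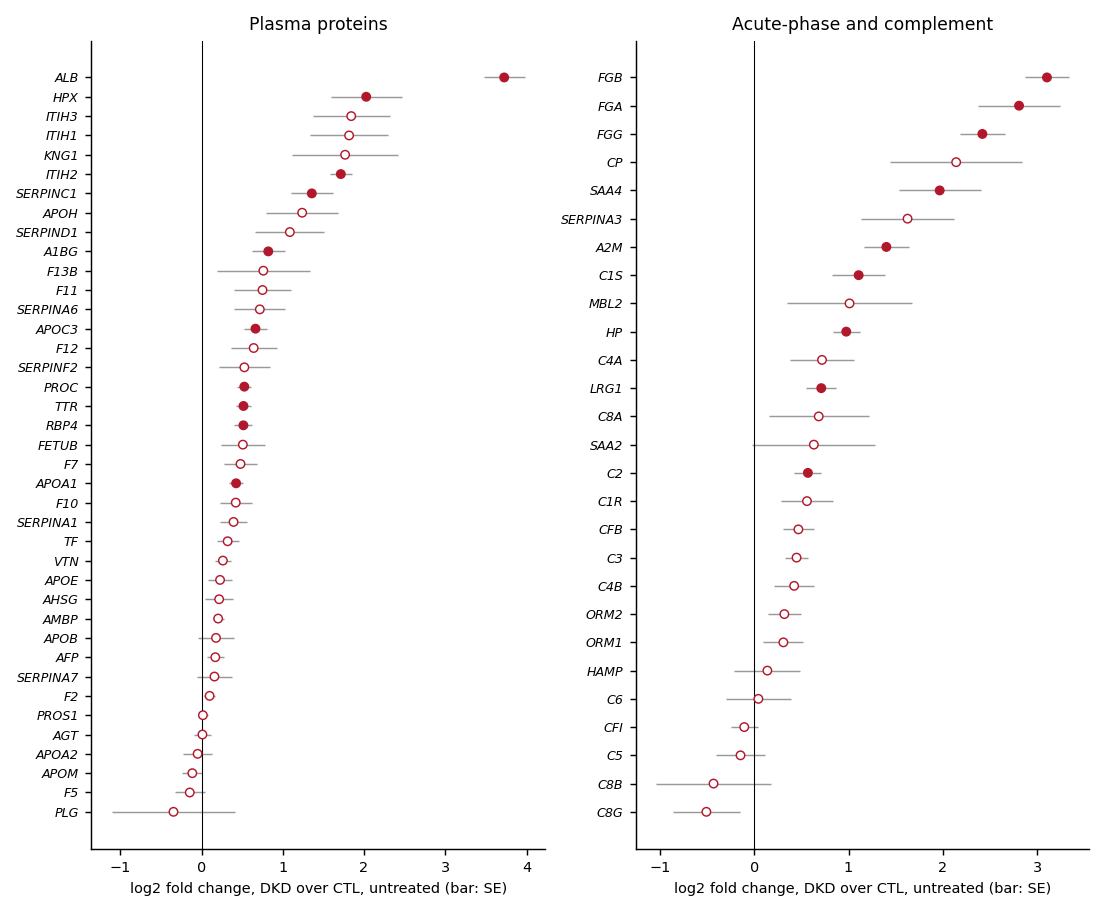
Log2 fold change (DKD over CTL, untreated) of each tested plasma protein gene (left) and acute-phase or complement gene (right), with bars of 1 SE from the edgeR fit; filled points were called. All 19 called genes lie above 0, from 0.43 for APOA1 to 3.72 for ALB.

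NR1H4, the bile acid receptor FXR, was the 1 liver transcription factor of 30 tested that was called (3.33%, against 4.98% of all genes). It stood at 73.8, 66.0 and 58.4 CPM in DKD, against 25.4, 19.004 and 20.1 CPM in CTL (log2 fold change 1.62, SE 0.22, adjusted p = 0.00173). The lowest DKD library was more than 2-fold above the highest CTL library. With the block 7 of the 30 rose and 2 fell, and the median was 0.18. HNF4A, a central hepatocyte factor, did not pass (0.25, adjusted p = 0.208). Of 39 drug, bile acid and transport genes (median 0.50) 4 rose and 1 fell (12.8% called). With the block 16 rose and 2 fell, where 16.5% of all genes were called, and without DKD replicate 1 6 rose and 2 fell. The 4 were AKR1B10, an aldo-keto reductase (1.60, SE 0.21), ABCC3, an efflux pump (1.43, SE 0.22), CYP4F3, a fatty acid hydroxylase (1.41, SE 0.34), and CYP27A1, a sterol hydroxylase of bile acid synthesis (0.64, SE 0.09). CYP2B6, a drug-metabolizing P450, was low in both groups, at 0.359 ± 0.141 CPM in DKD and 1.21 ± 0.278 CPM in CTL, and fell by 1.73.

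Apart from plasma protein genes, the largest rises among genes with a mean log2 CPM of at least 2 were in genes of varied function. Some rarer transcripts with rises as large are given further on, and not all of them are printed. LTBP1, which anchors latent TGF-beta in the matrix, stood at 20.3, 26.4 and 23.5 CPM in DKD, against 0.754, 1.41 and 1.18 CPM in CTL (log2 fold change 4.40, SE 0.24, adjusted p = 4.47e-06). GNG12, a G protein gamma subunit, stood at 16.1, 26.6 and 24.4 CPM in DKD, against 1.48, 1.41 and 1.34 CPM in CTL (3.98, SE 0.23). ALCAM, an adhesion molecule, stood at 86.0, 66.7 and 59.0 CPM in DKD, against 6.59, 6.83 and 4.25 CPM in CTL (3.59, SE 0.24). In each case the lowest DKD library was more than 8-fold above the highest CTL library. PTPRJ, a receptor tyrosine phosphatase, varied least, at 20.7, 19.9 and 20.6 CPM in DKD, against 2.24, 2.72 and 2.42 CPM in CTL (3.05, SE 0.14). SLC6A14, an amino acid transporter, averaged 30.8 ± 9.01 CPM in DKD and 3.39 ± 1.64 CPM in CTL (3.19, SE 0.45). SYNE3, a nuclear envelope protein, and SEZ6L2, a membrane protein, averaged 10.4 ± 0.715 and 10.6 ± 0.338 CPM in DKD and 1.17 ± 0.204 and 1.20 ± 0.497 CPM in CTL (SD, n = 3 each). TIMP3, a matrix-bound metalloprotease inhibitor, averaged 107 ± 33.7 CPM in DKD and 14.1 ± 2.67 CPM in CTL (2.93, SE 0.25). CTXND1, a cortexin domain gene, averaged 26.0 ± 14.7 CPM in DKD and 3.92 ± 1.63 CPM in CTL (2.72, SE 0.49). TIMP3 lies within an intron of SYN3, which also rose (2.05), and reads of overlapping genes may be split between them.

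Among genes with a mean log2 CPM of at least 2, the largest falls included a giant muscle protein, a glycogen regulator and surface proteins. Rarer transcripts fell as far, and not all of them are printed. TTN, which encodes the sarcomere protein titin, stood at 3.06, 1.36 and 1.79 CPM in DKD, against 84.7, 41.3 and 45.6 CPM in CTL (log2 fold change -4.80, SE 0.37, adjusted p = 4.15e-05). GRAMD1A, a carrier of cholesterol from the plasma membrane to the endoplasmic reticulum, stood at 0.628, 1.43 and 1.36 CPM in DKD, against 9.43, 19.2 and 17.5 CPM in CTL (-3.74, SE 0.48). PPP1R3B, which targets protein phosphatase 1 to liver glycogen, stood at 2.32, 1.66 and 2.10 CPM in DKD, against 22.6, 13.9 and 13.4 CPM in CTL (-3.04, SE 0.24). Every DKD library lay at least 5-fold below every CTL library for these genes. PODXL, an anti-adhesive sialomucin, stood at 1.91, 6.59 and 6.87 CPM in DKD, against 31.9, 39.1 and 38.8 CPM in CTL (-2.83, SE 0.39), with DKD replicate 1 the lowest. TIAM1, an activator of the GTPase RAC1, and KCNIP4, a potassium channel subunit, fell by 2.79 (SE 0.20) and 2.58 (SE 0.24) on the log2 scale. CDH16, a kidney-type cadherin, fell by 2.42 (SE 0.23). Among 21 genes of the plasminogen system and related serpins (median 0.10) 1 rose and 3 fell (19% called, against 4.98% of all genes). With the block 6 rose and 5 fell, where 16.5% of all genes were called. PLAU, the plasminogen activator urokinase, averaged 3.87 ± 1.71 CPM in DKD and 20.6 ± 1.05 CPM in CTL (-2.40, SE 0.40). SERPINE2, an inhibitor of thrombin and urokinase, averaged 1.72 ± 0.781 CPM in DKD and 9.34 ± 2.77 CPM in CTL (-2.43, SE 0.41).

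Some transcripts were close to absent in one line only, with a group mean of at most 0.5 CPM in one group and at least 2 CPM in the other. Among called genes 7 were near absent in CTL and 5 in DKD. CCND2, which encodes cyclin D2, an activator of CDK4 and CDK6, had 1, 0 and 0 counts in DKD, against 1299, 1017 and 1512 in CTL. With 1 count in the DKD group, the ratio of CTL over DKD after scaling to depth was 4049, with a 95% counting interval of 726 to 160000 that covers counting error only. The other D-type cyclins and their partner kinases were present in both groups and did not pass. CCND1 averaged 148 ± 0.991 CPM in DKD and 157 ± 9.36 CPM in CTL, and CCND3 8.82 ± 4.24 and 12.3 ± 2.30 CPM (adjusted p = 0.785 and 0.604). CDK4 and CDK6 had adjusted p of 0.232 and 0.350, and 0.028 and 0.032 with the block, toward lower levels in DKD.

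MAGEA12, a cancer-testis gene of the X chromosome, had 8, 23 and 19 counts in DKD, against 1167, 812 and 1189 in CTL (log2 fold change -6.06, SE 0.26, adjusted p = 1.16e-06). Its neighbour CSAG1, another cancer-testis gene, had 5, 1 and 7 counts in DKD, against 646, 429 and 592 in CTL (-7.03, SE 0.34). Both belong to families of near-identical copies, so the assignment of reads to one copy is uncertain. GOLM1, a Golgi membrane protein, and IGFBP7, a secreted binding protein, were also near absent in DKD, at 0.457 and 0.403 CPM, against 4.47 and 2.39 CPM in CTL. In the other direction, REG4, a secreted lectin of the gut, had 98, 104 and 111 counts in DKD and none in CTL. That is at least 98.6-fold higher against the limit of 3 counts over the CTL group. SHROOM2, an actin-binding protein, had 141, 228 and 251 counts in DKD and 0, 7 and 6 in CTL (5.41, SE 0.75). LVRN, an aminopeptidase, and SEMA5B, a semaphorin, averaged 2.77 and 2.09 CPM in DKD and 0.167 and 0.370 CPM in CTL. LDHB, the heart-type lactate dehydrogenase subunit, was rarer still, with 29, 23 and 14 counts in DKD and none in CTL, at least 20.8-fold higher against the same limit. LDHA, the other subunit, averaged 1108 ± 100.5 CPM in DKD and 1093 ± 94.8 CPM in CTL.

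Genes of 3 long chromosome stretches moved together, each by a modest amount. The genes tested on each chromosome were ordered by their GRCh38.p14 positions, and the 1 boundary that best split their fold changes was found. On 3 chromosomes the medians of the sides differed by at least 0.3 on the log2 scale, and the next largest step was 0.23 on chromosome 19. On chromosome 2, the 604 tested genes from position 88765902 to 242160503 had a median log2 fold change of 0.38 (a fold of 1.30) and an interquartile range from 0.21 to 0.54. The 403 genes on the other side of chromosome 2, which hold LTBP1, had a median of 0.01. On chromosome 9, the 43 genes from position 14513 to 15527886 had a median of 0.68 (1.60-fold), and the 561 other genes -0.01. On chromosome 10, the 189 genes from position 97498924 to 133643091 had a median of -0.47 (0.722-fold), and the 388 other genes, which hold MACROH2A2, 0.04.

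Most genes of each stretch shared its direction. The boundaries were placed on these same fold changes, so the shares and the pair medians without TNFα follow in part from that choice. On chromosome 2, 88.2% were above 0, on chromosome 9 90.7%, and on chromosome 10 87.3% were below 0, whereas 50.2% of the 14140 other genes with a position were above 0. The medians of the 3 same-numbered library pairs were 0.34, 0.37 and 0.36 on chromosome 2, 0.65, 0.61 and 0.62 on chromosome 9, and -0.46, -0.43 and -0.47 on chromosome 10. The pair of replicate 1 lay within 0.05 of the other pairs on each chromosome. In the TNFα-treated libraries, which do not enter the medians above, the pair medians were 0.31, 0.35 and 0.39 on chromosome 2. They were 0.67, 0.60 and 0.67 on chromosome 9, and -0.47, -0.45 and -0.47 on chromosome 10. The medians of the fitted log2 fold changes with TNFα were 0.39, 0.73 and -0.49 on chromosomes 2, 9 and 10.

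**Figure D3:**
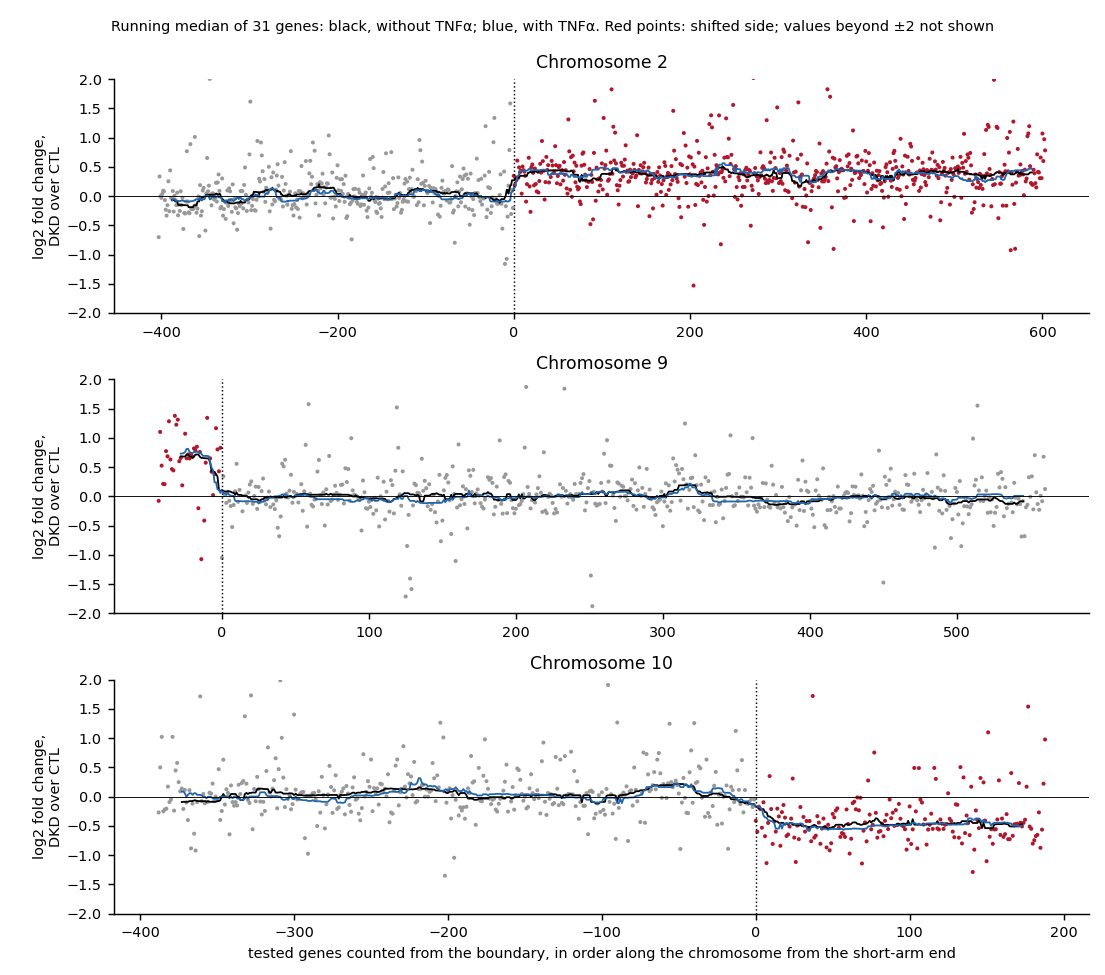
Log2 fold change (DKD over CTL) of each tested gene on chromosomes 2, 9 and 10 in chromosome order, counted from the boundary (dotted line); red points are the shifted side, and lines are running medians of 31 genes without TNFα (black) and with it (blue). Both lines step at the boundary, to medians of 0.38, 0.68 and -0.47 without TNFα.

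**Figure D4:**
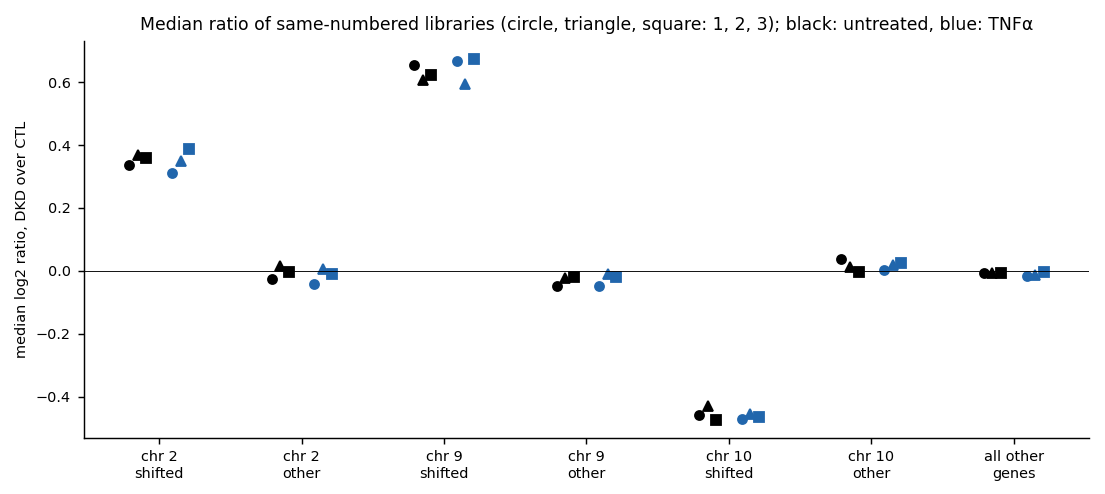
Median log2 ratio of same-numbered DKD and CTL libraries over the genes on each side of the 3 boundaries and over all other genes, for untreated (black) and TNFα-treated (blue) pairs; marker shapes give the replicate number. The 6 pairs lie together in each shifted region and within 0.05 of 0 elsewhere.

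These stretches held 836 tested genes (5.19%) and 237 of the 803 called genes (29.5%). By direction, 142 were called higher and 7 lower on chromosome 2, 22 and 0 on chromosome 9, and 2 and 64 on chromosome 10. Without them, 338 genes were called higher and 228 lower, 3.70% of 15282. They held fewer of the calls of at least 2-fold, 37 genes or 13.03%. DNA was not measured in these libraries, and what sets the shared shift was not tested. Every called gene in these stretches lies among neighbours with a shifted median. How far the change of any 1 gene goes with that shift was not tested. On chromosome 2 (median 0.38, upper quartile 0.54) IFIH1, a sensor of viral RNA, lay far above the quartile (log2 fold change 1.33). CFLAR, an inhibitor of death receptor signalling (0.61), lay closer to it, and FN1, which encodes fibronectin (0.37), near the median. PROC and CYP27A1 lie there too. On chromosome 10 (median -0.47) lie MKI67, the proliferation marker (-0.73), and SCD, the stearoyl-CoA desaturase (-0.70). MKI67 stood at 418, 354 and 417 CPM in DKD, against 706, 608 and 658 CPM in CTL, and SCD averaged 3056 ± 176 CPM in DKD and 4969.8 ± 241 CPM in CTL.

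A few members changed far more than their stretch or against it. JAK2, the kinase of many cytokine receptors, stood at 5.22, 6.54 and 6.58 CPM in DKD, against 0.851, 0.865 and 0.912 CPM in CTL (log2 fold change 2.80, SE 0.21, adjusted p = 4.15e-05). NFIB, a transcription factor, stood at 10.1, 8.49 and 7.94 CPM in DKD, against 1.46, 1.73 and 1.30 CPM in CTL (2.56, SE 0.19). Both lie in the stretch of chromosome 9, at over 3 times the fold of its median gene, whereas GLDC, the glycine decarboxylase (0.85, SE 0.08), and KDM4C, a histone demethylase (0.76, SE 0.11), lay near the median. VLDLR, a lipoprotein receptor in the same stretch, rose by 1.28 (SE 0.19). TTN and its neighbour CCDC141 fell by 4.80 and 3.75 within the stretch of chromosome 2 whose median gene was higher. SERPINE2 in that stretch fell too, as did ADAM23 (-3.38), ZNF804A (-2.84) and STK17B (-0.90). EDAR was also called lower there (-8.39). Its CTL mean was under 2 CPM, so the size of that fall rests on few or no DKD counts and is uncertain.

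Matrix and adhesion genes went both ways. Called shares of the lists that follow ran from 9.76% (TGF-beta and BMP) to 19.6% (extracellular matrix), against 4.98% of all genes. With the block 16.5% of all genes were called. Of 46 extracellular matrix genes (median 0.09) 5 rose and 4 fell, 4 and 4 of them outside the 3 stretches, and with the block 7 rose and 9 fell. SPARC, a collagen-binding protein, averaged 106 ± 29.6 CPM in DKD and 33.8 ± 5.73 CPM in CTL (log2 fold change 1.64, SE 0.19), and LOX, a collagen-crosslinking oxidase, 59.2 ± 10.7 and 17.6 ± 3.02 CPM (1.75, SE 0.22). FBN1, the microfibril protein fibrillin-1, averaged 6.84 ± 1.41 CPM in DKD and 21.6 ± 1.10 CPM in CTL (-1.66, SE 0.18). Of 45 adhesion and junction genes (-0.04) 4 rose and 3 fell, and 10 rose and 9 fell with the block; CLDN1, a tight junction protein, rose by 0.69 and NECTIN3, a cell contact protein, fell by 0.75. Of 41 TGF-beta and BMP pathway genes (-0.02) 2 rose and 2 fell, and 8 rose and 6 fell with the block. LTBP1 was one that rose, and BAMBI, a decoy receptor, and TGFBR2, the type II receptor, fell by 0.98 and 0.28. EFNB2, the ligand ephrin-B2, stood at 12.8, 10.7 and 12.5 CPM in DKD, against 69.7, 52.1 and 53.9 CPM in CTL (-2.29, SE 0.16). It was 1 of 3 of 36 guidance genes (-0.14) that fell, while EPHA1, an Eph receptor, rose (1.49); with the block 2 rose and 8 fell. Of 45 receptor kinase and phosphatase genes (0.00) 4 rose and 2 fell, among them ROR1, a Wnt receptor kinase (2.44, SE 0.27), and 8 rose and 3 fell with the block. Of 39 G protein signalling genes (0.09) 4 rose and none fell, ADCY1, an adenylyl cyclase, among them (1.84, SE 0.26), and 8 rose and 2 fell with the block.

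Metabolic lists were also mixed. Where members were called, their share ran from 7.69% (glycogen) and 8.11% (cholesterol) to 15% (amino acid transport and serine synthesis). Over all genes it was 4.98%, and 16.5% with the block. Of 54 fatty acid and triglyceride genes (median 0.11) 6 rose and 2 fell, and 14 rose and 7 fell with the block. LIPG, endothelial lipase, stood at 20.4, 22.9 and 17.3 CPM in DKD, against 2.92, 4.68 and 3.31 CPM in CTL (log2 fold change 2.48, SE 0.23). ACACB, the mitochondrial acetyl-CoA carboxylase, and PPARGC1A, a coactivator of mitochondrial genes, rose by 1.18 and 1.24, and FABP1, the liver fatty acid binding protein, by 0.79. FASN, fatty acid synthase, averaged 1062 ± 60.4 CPM in DKD and 1413 ± 140.3 CPM in CTL (-0.41, adjusted p = 0.0499), and SCD fell as given above. Of 36 glycolysis and gluconeogenesis genes (-0.04) 4 rose and 1 fell, and 7 rose and 6 fell with the block. Those that rose were LDHB, SLC2A2, the liver glucose transporter (0.68), PFKFB1, the liver PFK-2 enzyme (1.65), and PFKM, a phosphofructokinase (1.06). Of 26 glycogen genes (0.03) PPP1R3B fell and PGM1, a phosphoglucomutase, rose (0.40), and 4 rose and 3 fell with the block. Of 40 genes of amino acid transport and serine synthesis (0.11) 2 rose and 4 fell, and 7 rose and 6 fell with the block, with SLC7A1, the arginine importer, at 80.1 ± 5.04 CPM in DKD and 161 ± 17.1 CPM in CTL (-1.01, SE 0.11). Of 37 cholesterol genes (0.00) 1 rose and 2 fell, and 3 rose and 7 fell with the block. None of the 13 mitochondrially encoded genes was called by edgeR, with or without the block (median 0.12).

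Cell cycle genes were called about as often as all genes, 5.17% against 4.98%. Of 58 tested, none rose and 3 fell, with a median log2 fold change of -0.13. With the block 1 rose and 8 fell, where 9.17% of all genes rose and 7.31% fell, 16.5% in all. CCND2, MKI67 and UBE2C, a mitotic ubiquitin-conjugating enzyme, were the 3, and UBE2C averaged 28.9 ± 8.10 CPM in DKD and 56.8 ± 8.57 CPM in CTL. The median member lay at -0.75 in DKD replicate 1 relative to replicates 2 and 3, and at -0.05 in CTL replicate 1. Without DKD replicate 1, 1 member rose and 2 fell. Of 40 p53 and senescence genes (0.05) 1 rose and 2 fell, 7.5% against 4.98% of all genes. With the block 4 rose and 2 fell, where 16.5% of all genes were called. CDKN2A, which encodes the CDK inhibitor p16, was rare, at 0.343 ± 0.110 CPM in DKD and 1.44 ± 0.115 CPM in CTL (-2.05, SE 0.39).

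Wnt regulators, fetal genes and inflammatory genes contained single large changes. Called shares of these lists ran from 7.89% (NF-kB) to 21.7% (oncofetal and imprinted), against 4.98% of all genes. With the block 16.5% of all genes were called. Of 40 Wnt, Notch and Hippo genes (median -0.11) 4 rose and 4 fell, and 7 rose and 11 fell with the block. DKK1 and DKK4, secreted Wnt antagonists, averaged 28.9 ± 15.7 and 16.6 ± 4.15 CPM in DKD and 6.61 ± 3.05 and 6.44 ± 1.41 CPM in CTL, whereas NOTUM, a secreted Wnt deacylase, averaged 63.4 ± 17.1 CPM in DKD and 128 ± 18.0 CPM in CTL. Of 23 oncofetal and imprinted genes (0.09) 4 rose and 1 fell, the imprinted gene MEST (-1.92, SE 0.36), and 6 rose and 4 fell with the block. Of 43 interferon-stimulated genes (0.10) 4 rose and 1 fell, 2 and 1 outside the 3 stretches, and 10 rose and 4 fell with the block. Of 24 cytokine and receptor genes (0.34) 4 rose and none fell, and 9 rose and 3 fell with the block. TNFSF10, the death ligand TRAIL, averaged 3.83 ± 0.575 CPM in DKD and 0.974 ± 0.381 CPM in CTL (1.96, SE 0.40), and OSMR, the oncostatin M receptor, 92.5 ± 14.7 and 38.9 ± 5.73 CPM (1.25, SE 0.14). Of 38 NF-kB genes (0.04) 2 rose and 1 fell, NFKB1, a subunit of the factor (-0.52, SE 0.13), and 5 rose and 1 fell with the block. Of 20 MHC class I genes (-0.16) none rose and 3 fell, the neighbouring peptidases ERAP1, ERAP2 and LNPEP on chromosome 5 (-0.38, -0.87 and -0.52), and 1 rose and 4 fell with the block.

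**Figure D5:**
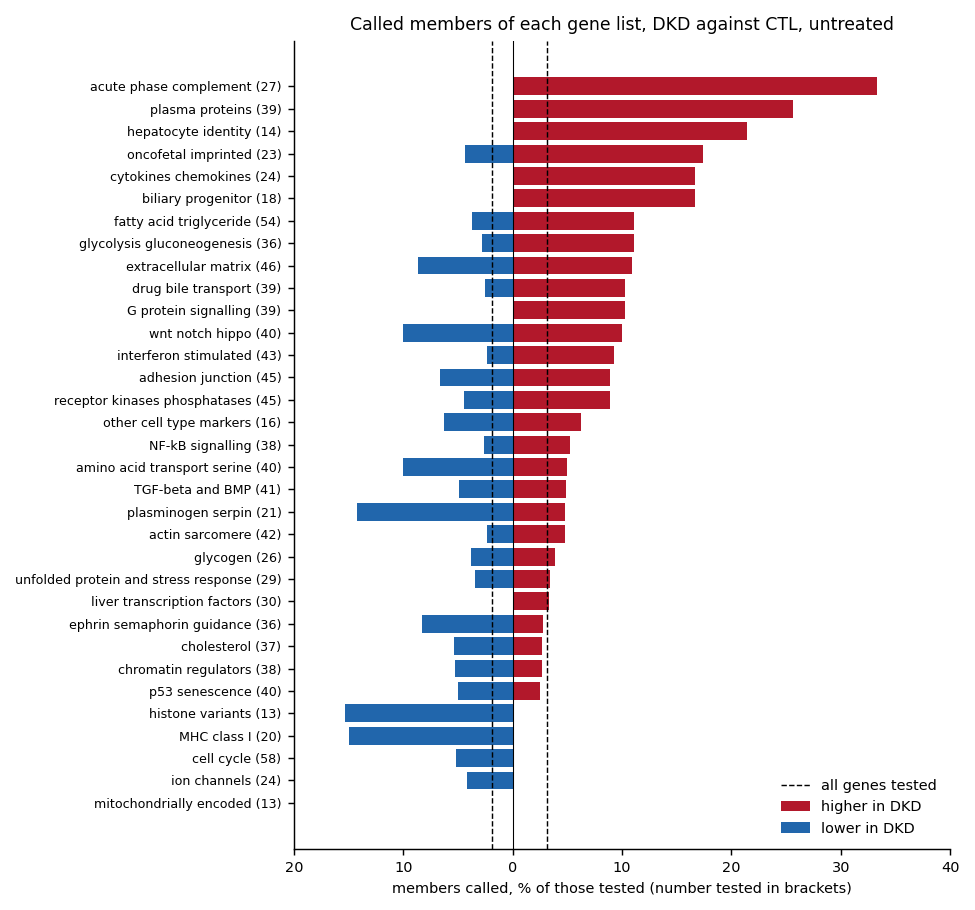
Share of the tested members of each of the 33 gene lists called higher (red, to the right) or lower (blue, to the left) in DKD than in CTL; the number tested is in brackets and dashed lines give 3.13% and 1.86%, the shares over all genes. The acute-phase and plasma protein lists have the longest bars to the right, with 9 of 27 and 10 of 39 members and none lower. All lists were written with earlier results of these data known.

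The same direction was found in cells given TNFα. Of the 504 genes higher without TNFα 502 had a positive log2 fold change with it, and of the 299 lower genes 298 had a negative one. Of these 504 and 299 genes, 415 and 245 were also called with TNFα in the same direction. The genes were chosen for their difference without TNFα, and the share of all tested genes with the same sign was not worked out. The values with TNFα come from other libraries, but from the same lines and the same fit. LTBP1 differed by 4.40 without and 4.31 with TNFα, ALB by 3.72 and 3.35, PTPRJ by 3.05 and 3.27 and TTN by -4.80 and -4.54. Other values lay further apart: FGB differed by 3.10 without and 1.97 with TNFα, NR1H4 by 1.62 and 2.62, and DKK4 by 1.37 and 2.72, with unadjusted p of 0.00343, 0.00788 and 0.00257 for the difference in edgeR's test, and none passed after adjustment. The test of the difference between these effects (without minus with TNFα) called no gene with edgeR (0%), with or without the block. In edgeR's main fit 184 genes had an unadjusted p under 0.05 (1.14%), against 556 with the block, 169 with DESeq2 and 565 with voom. A share of 1.14% is lower than the threshold of 0.05 itself, so that test was cautious. The lack of calls therefore does not show that the effects were equal. DESeq2 called 5 genes and limma's voom 1.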

How the data were processed

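RNA of 12 HepG2 libraries was measured by sequencing; the authors deposited 1 table of estimated counts for 35984 genes, made with Salmon 0.14.0 on GRCh38 per the submitters' processing notes, which also name CASAVA 1.7 and DESeq2. Which annotation, gene-level summary and strand mode were used is not given in the sources used here. The 10456 genes without a count were dropped, and values were rounded to whole numbers where needed. A filter (filterByExpr, minimum count 10, minimum total 15) left 16118 genes. edgeR 4.0.16 in R 4.3.3 fitted 4 group means with TMM factors and quasi-likelihood tests (8 residual degrees of freedom), tested on simulated data. P-values were adjusted by Benjamini-Hochberg and called under 0.05. CPM values use TMM-scaled totals, and library pair ratios a pseudocount of 0.5 CPM. Positions and promoters came from RefSeq GRCh38.p14, matched by symbol for 14994 tested genes. Boundaries needed 20 genes on each side and a step of 0.3.

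The labels state no shared batch. Same-numbered untreated libraries deviated together all the same (r = 0.70, 0.469 and 0.528, with other pairs at most 0.309). Deviations were taken from means of 3 libraries, so these r are not independent. A shared departure of the libraries numbered 1 also raises r among those numbered 2 and 3. Across the groups, number 2 with number 3 had r of 0.258 and 0.309. The main fit leaves the pairing by number out, so its standard errors and adjusted p ignore it. The fit with the replicate block takes it in. Alternatives were RLE scaling, DESeq2 1.42.0, limma 3.58.1 (voom with quality weights), no filter, the replicate block, libraries left out, and the 6 untreated libraries alone.

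The genes named are both targets, up to 12 called genes at each end of the fold changes (mean log2 CPM of at least 2, no overlap, not all printed), and up to 3 called members of each of 33 gene lists. Other genes were named after their values were seen, and some genes under the rule are not reported here. The comparison, its members and the lists were chosen with earlier results of these data known. A low level is limited by counting error only where an interval is given.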

Additional observations from a re-analysis of the deposited data

How the results depend on the processing

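Of 803 called genes (504 higher and 299 lower in DKD), the count was 1434 (812 and 622) with DESeq2, 2528 (1414 and 1114) with limma's voom, 2657 (1478 and 1179) with the replicate block, 1983 (1155 and 828) with replicates 2 and 3 only, and 332 (210 and 122) with the 6 untreated libraries only. With those 6 libraries and the replicate block, 757 genes were higher and 438 lower. RLE scaling, no filter and leaving out the 3 chromosome stretches gave 806, 667 and 566. Leaving out 1 library at a time gave 423 to 917 calls, 255 to 581 higher and 168 to 336 lower; without DKD replicate 1, 670 of the 803 were still called. The causes of these differences were not tested. The difference from the effect with TNFα was called for 0 genes, 5 with DESeq2, 1 with voom, and 0 to 1 with 1 library left out (1 without CTL untreated replicate 2). Of 91 genes under the naming rule none changed direction under any of these settings. Of them 8 lost their call without the filter, 23 with 6 libraries and none with the replicate block, DESeq2 or voom. With 1 untreated library left out, 5 (DKD replicate 1) to 18 (CTL replicate 2 or 3) lost it. Genes named outside the rule were not followed over these settings. The block took no call from the 803; its counts stand beside the lists. With 3 libraries per group and 1 of them apart, small changes were not detectable in many genes, and levels under a few counts per library carry wide counting error.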

Other observations

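In the remaining gene lists 1 to 3 members each were called, 4.17% of the ion channel genes to 21.4% of the hepatocyte markers, against 4.98% of all genes. With the block 16.5% of all genes were called. Of 42 tested actin and sarcomere genes (median log2 fold change -0.01) 2 rose and 1 fell, and 6 rose and 3 fell with the block. TPM1, a tropomyosin, stood at 225, 231 and 229 CPM in DKD, against 134, 158 and 159 CPM in CTL, and VIL1, which encodes villin and lies in the shifted stretch of chromosome 2, averaged 374 ± 30.0 and 252 ± 5.06 CPM in DKD and CTL. Of 29 genes of the unfolded protein response (-0.01) 1 rose and 1 fell, and 4 rose and 2 fell with the block; HYOU1, a chaperone of the endoplasmic reticulum, fell by 0.27. Of 18 biliary and progenitor genes (0.11) 3 rose and none fell, and 5 rose and 2 fell with the block: EPCAM, an epithelial adhesion molecule, CLU, the chaperone clusterin, and ASGR2, an asialoglycoprotein receptor subunit that hepatocytes carry, rose by 0.35, 0.44 and 0.32. Of 24 ion channel genes (0.01) KCNIP4 fell, and 1 rose and 7 fell with the block. Of 14 hepatocyte markers (0.21) 3 rose and none fell, ALB, APOA1 and TTR, which are also among the plasma proteins, and 5 rose with the block. Of 16 tested markers of other cell types (0.11) 1 rose and 1 fell, both rare, and 1 rose and 2 fell with the block. CD4, a T cell coreceptor, averaged 0.340 ± 0.153 CPM in DKD and 1.31 ± 0.317 CPM in CTL, and HBA1, a haemoglobin gene with a near-identical copy, 1.35 ± 0.123 and 0.399 ± 0.0452 CPM.

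Called genes next to each other along a chromosome often shared a direction. Outside the 3 shifted stretches, 54 pairs of adjacent tested genes were both called, 43 of them in the same direction. With 338 genes called higher and 228 lower there, some pairs would share a direction in any case. That expected share was not worked out. In 19 pairs both genes were at least 2-fold apart, 15 of them in the same direction, and some of these overlap each other, such as SYN3 and TIMP3. Beside the fibrinogen genes and MAGEA12 with CSAG1, the same direction was seen for SEZ6L2 and ASPHD1 on chromosome 16 (log2 fold changes 3.14 and 2.74) and for zinc finger genes on chromosome 19. There ZNF221 and ZNF155 rose by 1.68 and 2.13, and ZNF223 and ZNF284 by 1.78 and 1.96. The opposite was seen for ITIH5 and ITIH2, neighbours on chromosome 10 that encode related hyaluronan-binding proteins. ITIH5 stood at 5.46, 7.63 and 8.11 CPM in DKD, against 39.1, 32.8 and 37.9 CPM in CTL (-2.37, SE 0.16), while ITIH2 was higher in DKD. FBXL21P, the tested gene next to MACROH2A1 on chromosome 5, averaged 2.24 ± 0.527 CPM in DKD and 0.188 ± 0.155 CPM in CTL (3.53, SE 0.48). These pairs were singled out after their values were seen.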
